A study of Mus musculus with 8 samples.

Results

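The mitochondrial genome of the mouse carries 37 genes: 13 encode protein subunits of oxidative phosphorylation, 2 encode ribosomal RNAs and 22 encode transfer RNAs. All 37 were found among the 55421 genes of the deposited count table, as the genes whose deposited name starts with mt-, and all lie on chromosome M (GRCm38). Their counts were compared in total RNA of small intestine from 8 mouse samples of wild-type genotype (WT). The 4 Hypoxia samples came from mice kept at 7% oxygen for 7 days, and the 4 Hypoxia+Nitrate samples from mice kept at the same oxygen level that were also given 4 mM nitrate, an anion the body can reduce to nitric oxide. Both groups were therefore hypoxic, and no group at normal oxygen is among these samples. The age and sex of the mice, the route of the nitrate and the animal behind each sample are not stated in the sources used here, so p-values measure the spread between samples, which may be technical.

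As background, both strands of mitochondrial DNA are transcribed as long precursors by a dedicated polymerase, POLRMT, with TFAM and TFB2M. Transfer RNA genes sit between most of the other genes, and cutting them out by RNase P and ELAC2 frees the mRNAs and rRNAs; what remains afterwards depends on the stability of each RNA. Absorptive epithelium of the small intestine is rich in mitochondria, whose complex IV passes electrons to oxygen.

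The members differ in how clearly reads can be assigned to them. Of the 37 genes, 9 (mt-Nd6 and 8 tRNA genes) are encoded on the minus strand of the reference and the other 28 on the plus strand. The strand setting of the authors' counting is not given in the sources used here, so reads from these genes and from the precursor of the opposite strand cannot be told apart. A read on a tRNA gene can also come from the tRNA or from a longer RNA that spans it. The sequences below are those of the 4 adjoining minus-strand tRNA genes that held most tRNA counts in every Hypoxia+Nitrate library, of 3 plus-strand tRNA genes with low counts in Hypoxia+Nitrate described below, and of mt-Tl1, which follows the rRNA genes. They are printed 5′ to 3′ as RNA-sense DNA from the GENCODE M21 transcripts on GRCm38, with the anticodon in capitals; the anticodon is the triplet for that amino acid whose flanking stem pairs best, with all 5 pairs formed except in mt-Tl1, where 4 form.

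mt-Ta (alanine, chrM:5018-5086, minus strand): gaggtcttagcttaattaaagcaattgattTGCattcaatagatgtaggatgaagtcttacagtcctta
mt-Tn (asparagine, chrM:5089-5159, minus strand): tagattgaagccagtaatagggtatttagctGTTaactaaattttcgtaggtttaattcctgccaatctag
mt-Tc (cysteine, chrM:5192-5257, minus strand): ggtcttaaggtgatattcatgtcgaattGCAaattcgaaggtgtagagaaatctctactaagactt
mt-Ty (tyrosine, chrM:5260-5326, minus strand): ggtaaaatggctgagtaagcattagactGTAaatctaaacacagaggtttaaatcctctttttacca
mt-Tf (phenylalanine, chrM:1-68, plus strand): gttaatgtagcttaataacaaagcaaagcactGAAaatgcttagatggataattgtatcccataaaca
mt-Tv (valine, chrM:1025-1093, plus strand): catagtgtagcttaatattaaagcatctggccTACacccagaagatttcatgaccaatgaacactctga
mt-Ti (isoleucine, chrM:3706-3774, plus strand): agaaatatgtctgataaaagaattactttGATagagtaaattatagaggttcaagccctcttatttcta
mt-Tl1 (leucine, chrM:2676-2750, plus strand): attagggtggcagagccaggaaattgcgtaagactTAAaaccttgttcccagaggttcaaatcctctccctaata

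The mRNA genes overlap in places. The reading frames of mt-Atp8 and mt-Atp6, the subunits of ATP synthase, share 43 bases, and those of mt-Nd4l and mt-Nd4, subunits of complex I, share 7. A read inside the capitals below matches both genes of the pair.

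mt-Atp8 and mt-Atp6 (chrM:7907-7989, plus strand, shared bases 7927 to 7969): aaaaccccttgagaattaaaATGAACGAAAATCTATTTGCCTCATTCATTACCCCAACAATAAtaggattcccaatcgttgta
mt-Nd4l and mt-Nd4 (chrM:10147-10193, plus strand, shared bases 10167 to 10173): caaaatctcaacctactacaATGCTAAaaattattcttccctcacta

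Libraries differed widely in depth and content. Wherever 4 values of a group are listed, they stand in the order of replicates 1 to 4. Total counts lay between 5345377 and 21835865 in Hypoxia and between 8662279 and 63943036 in Hypoxia+Nitrate, and the TMM scaling factors between 0.633 and 3.69 and between 0.220 and 2.13. A ribosomal DNA locus took 7.06% to 75.7% of counts in Hypoxia and 2.33% to 21.96% in Hypoxia+Nitrate. Of 1470 autosomal receptor genes for odorants, pheromones and trace amines, which are expected to be little used in gut, 99.0% to 99.6% had counts in each Hypoxia library, against 31.2%, 82.3%, 55.5% and 41.1% in the Hypoxia+Nitrate libraries. Summed CPM of 8 absorptive enterocyte markers were 80.1 to 461 in Hypoxia and 8667, 3593, 2350 and 15220 in the Hypoxia+Nitrate libraries. For all marker sums CPM are counts relative to all counts of the library, and elsewhere relative to the TMM-scaled library size. Those of 7 smooth muscle markers were 330 to 592 in Hypoxia and 367.5, 5743, 3734 and 679 in the Hypoxia+Nitrate libraries. Markers of goblet cells (6 genes, 50.8 to 149 against 337.5 to 648 summed CPM) and Paneth cells (5 genes, 45.7 to 57.8 against 189 to 1581) were likewise higher in every Hypoxia+Nitrate library. Those of neurons and glia (6 genes) were 28.3 to 198 in Hypoxia and 9.13, 180.1, 249 and 17.2 in Hypoxia+Nitrate. The sums for immune cells (7 genes, 37.7 to 267 against 95.9 to 413) and pancreas acinar cells (6 genes, 7.14 to 46.2 against 1.83 to 24.8) overlapped between groups. Overlap after TMM scaling was not examined. No marker of these 7 lists was at 0 in every library. The part that these differences have in the results below was not tested, and in bulk samples fewer cells of a type and less RNA per cell cannot be told apart.

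Mitochondrial genes took a larger part of every Hypoxia+Nitrate library than of any Hypoxia library. Their share of all counts was 0.959%, 1.15%, 1.40% and 0.583% in the Hypoxia libraries and 64.9%, 8.15%, 7.31% and 49.95% in the Hypoxia+Nitrate libraries. The groups did not overlap, and within Hypoxia+Nitrate libraries 1 and 4 stood far above 2 and 3. Group means were 1.02% ± 0.346 (SD, n = 4) and 32.6% ± 29.4 (SD, n = 4), a difference of 31.6 percentage points that was 20.8 without Hypoxia+Nitrate 1. Within this group, without TMM scaling, the enterocyte marker sums were likewise highest in libraries 1 and 4. The smooth muscle, Paneth cell and neuron and glia sums were lowest there. These sums are relative to all counts, which include the mitochondrial counts, and the order of libraries can differ after TMM scaling. The receptor genes with counts were also fewest in libraries 1 and 4. Intervals for counting error (95% Wilson) reached at most 0.0173 percentage points on either side of a library's share, far less than the distances between libraries. As a sum over the members this share was given no test.

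The RNA classes did not contribute alike. The mRNA genes made up 70.9%, 78.6%, 75.9% and 72.7% of mitochondrial counts in the Hypoxia libraries and 98.5%, 89.8%, 94.4% and 98.6% in the Hypoxia+Nitrate libraries. The rRNA genes made up 25.4%, 18.6%, 19.9% and 24.5% and then 1.09%, 8.75%, 2.76% and 1.14%, so that every Hypoxia library had a higher rRNA share than any Hypoxia+Nitrate library (means 22.1% ± 3.38 and 3.43% ± 3.63, SD, n = 4 each). The tRNA genes held 2.78% to 4.26% in Hypoxia and 0.386%, 1.48%, 2.85% and 0.243% in the Hypoxia+Nitrate libraries, with Hypoxia+Nitrate 3 inside the Hypoxia range. Counted against all counts of the library rather than mitochondrial counts, the mRNA share rose from 0.768% ± 0.279 to 31.9% ± 29.2 (SD, n = 4 each), while the rRNA share was 0.220% ± 0.0578 against 0.548% ± 0.240. Hypoxia+Nitrate 3, with an rRNA share of 0.202% of all counts, lay within the Hypoxia range of 0.143% to 0.279%.

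**Figure D1:**
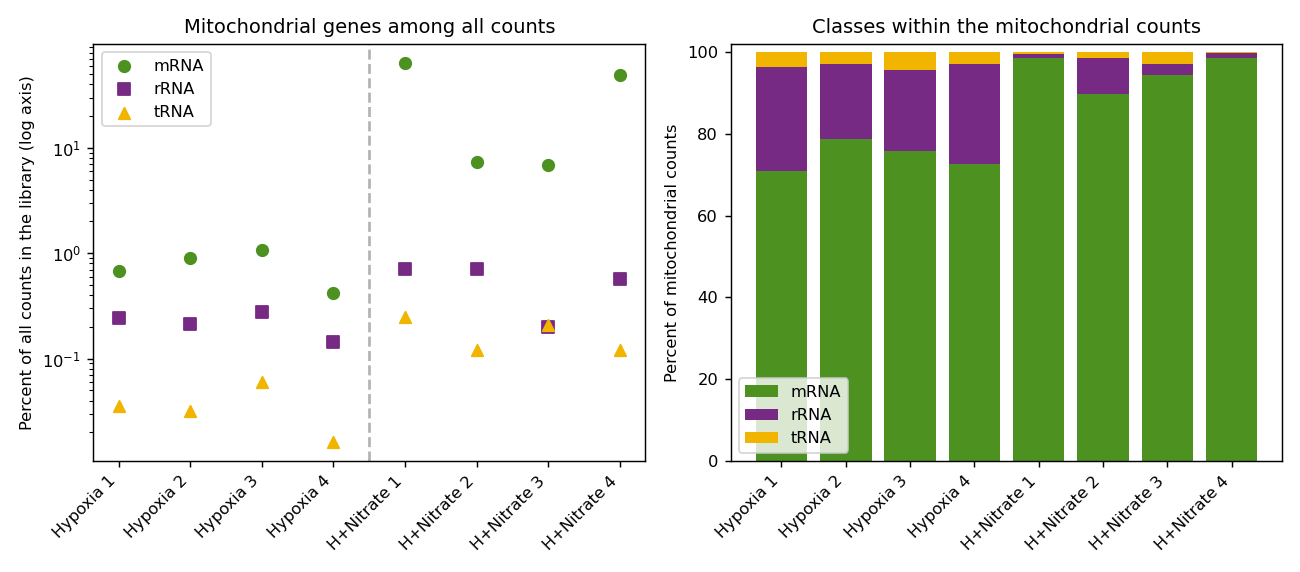
Left, percent of all counts in each library (log axis) taken by mitochondrial mRNA, rRNA and tRNA genes; right, the same classes as percent of mitochondrial counts, for the 4 Hypoxia and 4 Hypoxia+Nitrate (H+Nitrate) libraries. The mRNA points of Hypoxia+Nitrate lie above 6% and those of Hypoxia near 1% or below, and rRNA shrinks from 18.6% to 25.4% of the bar to 1.09% to 8.75%.

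Each of the 13 mRNA genes was higher in every Hypoxia+Nitrate library than in any Hypoxia library after TMM scaling, and 3 of the 13 passed the edgeR test. Over all 35431 genes tested, 12% had groups that did not overlap in that direction and 28.8% in the lower direction, where no member was found. This was edgeR's quasi-likelihood test with Benjamini-Hochberg adjustment over all genes tested, at 0.05. By this test 11.7% of all genes tested were higher in Hypoxia+Nitrate and 12.7% lower, and 3 of 13 mRNA genes were higher and 0 lower (10 at an unadjusted p under 0.05, all higher). Of all 35431 genes tested, 14442 had an unadjusted p under 0.05 by edgeR in either direction. With DESeq2 and with limma-voom all 13 mRNA genes were higher, beside 4651 and 3870 of all 35431 genes. The median log2 fold change of the 13 was 7.12, against −0.58 for all genes, with a range from 4.84 for mt-Nd6 to 8.10 for mt-Atp8 and standard errors of 1.75 to 5.27.

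mt-Atp8, a small membrane subunit of ATP synthase (ENSMUSG00000064356, chrM:7766-7969), held 117, 210.0, 45.8 and 34.3 CPM in the Hypoxia libraries and 74604, 752, 529 and 35443 CPM in the Hypoxia+Nitrate libraries. Hypoxia+Nitrate 1 and 4 exceed 2 and 3 by more than Hypoxia+Nitrate 2 exceeds Hypoxia 2. Its log2 fold change was 8.10 (SE 2.59, edgeR adjusted p = 0.0435). mt-Nd3, a membrane subunit of complex I (ENSMUSG00000064360, chrM:9459-9806), held 46.2, 76.4, 12.96 and 6.99 CPM in Hypoxia and 10345, 246, 205 and 4717 CPM in Hypoxia+Nitrate. The order of the libraries was the same as for mt-Atp8, and the log2 fold change was 6.77 (SE 1.75, edgeR adjusted p = 0.0201). mt-Nd4l, another membrane subunit of complex I (ENSMUSG00000065947, chrM:9877-10173), held 95.9, 94.4, 44.3 and 26.6 CPM in Hypoxia and 24882, 299, 175 and 8888 CPM in Hypoxia+Nitrate. Its log2 fold change was 7.03 (SE 1.99, edgeR adjusted p = 0.0282).

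The other 10 mRNA genes did not pass. mt-Co1, the catalytic subunit of complex IV (ENSMUSG00000064351, chrM:5328-6872), had 24749, 52030, 10985 and 10505 raw counts in the Hypoxia libraries and 16619824, 238984, 153069 and 10689954 in the Hypoxia+Nitrate libraries. With the largest standard error of the 13, its log2 fold change of 8.02 (SE 5.27) had an edgeR adjusted p of 0.262. mt-Nd6, the only mRNA of the minus strand (ENSMUSG00000064368, chrM:13552-14070), had the smallest log2 fold change (4.84, SE 2.05, edgeR adjusted p = 0.102). Values of 727, 1662, 88.6 and 66.2 CPM in Hypoxia and 55165, 1897, 1906 and 13730 CPM in Hypoxia+Nitrate place Hypoxia 2 just below Hypoxia+Nitrate 2 and 3. The remaining 8 had log2 fold changes of 5.96 (mt-Nd5) to 7.81 (mt-Co2), with adjusted p of 0.0722 (mt-Nd2) to 0.146 (mt-Cytb).

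Which members passed depended on single libraries, as did the number of calls over all genes. Of the 36 members that could be tested, 10 were higher (3 mRNA and 7 tRNA genes) and 0 lower. At an unadjusted p under 0.05 were 21, all of them higher, beside 14442 of all 35431 genes in either direction. Without Hypoxia 1, 3 or 4 in turn, edgeR called 0 members (15, 11 and 10 at an unadjusted p under 0.05), and it called 5 without Hypoxia 2. Over all genes tested, these fits called 676 of 34746, 1580 of 38001, 1631 of 38580 and 2589 of 36660 higher. Without Hypoxia 1, 3 and 4, 10519, 12069 and 12754 of these genes had an unadjusted p under 0.05 in either direction. The fit with all libraries called 4163 of 35431 higher. Without Hypoxia+Nitrate 1, 2, 3 and 4 in turn edgeR called 5, 24, 15 and 7 members higher, and without both Hypoxia+Nitrate 1 and 4 it called 3, all of them mRNA genes. Over all genes tested, these fits called 3405 of 37475, 5974 of 41753, 5490 of 41885, 2866 of 37453 and 4243 of 42069 higher. Over 20 alternative settings, mt-Nd3 passed in 15, mt-Nd4l in 14 and mt-Atp8 in 13, each with a log2 fold change above 0 throughout.

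**Figure D2:**
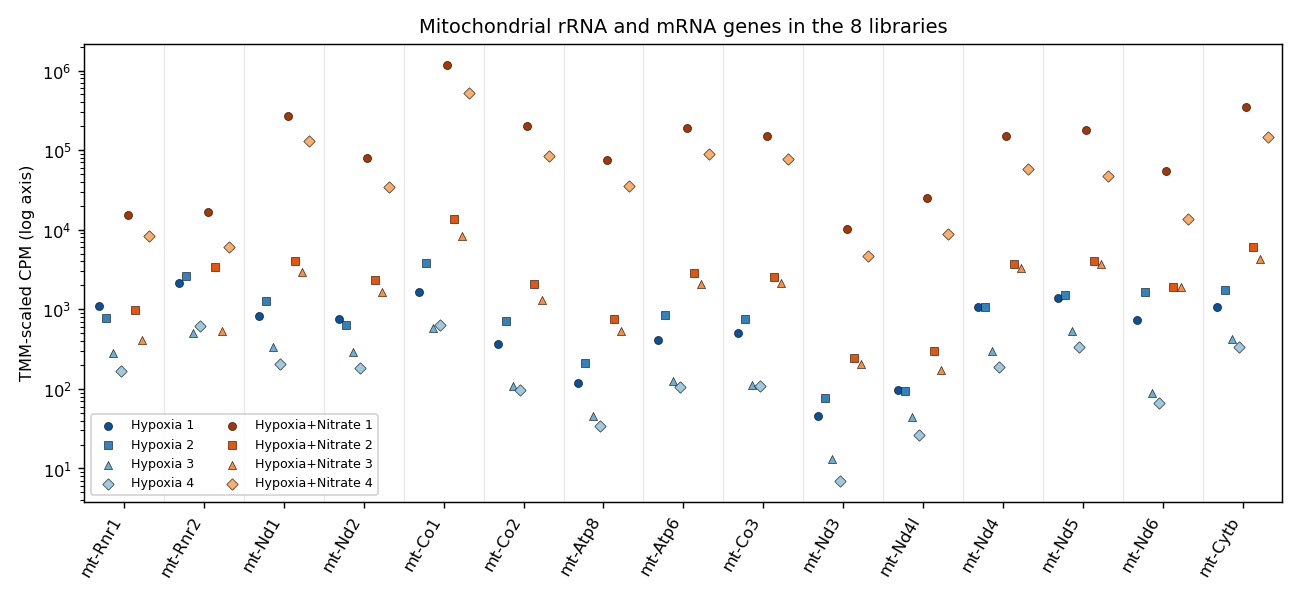
TMM-scaled CPM (log axis) of the 2 rRNA and 13 mRNA genes in genome order, 1 point per library. For the mRNA genes all 4 Hypoxia+Nitrate points lie above the Hypoxia points, with libraries 1 and 4 far above 2 and 3, whereas for mt-Rnr1 and mt-Rnr2 the groups overlap.

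The 2 rRNAs, which form the RNA core of the mitochondrial ribosome, overlapped between groups in CPM. mt-Rnr1 (12S, ENSMUSG00000064337, chrM:70-1024) held 1106, 785, 281 and 168 CPM in Hypoxia and 15290, 985, 412 and 8370 CPM in Hypoxia+Nitrate. mt-Rnr2 (16S, ENSMUSG00000064339, chrM:1094-2675) held 2130, 2615, 504 and 617 CPM in Hypoxia and 16867, 3352, 538 and 6120 CPM in Hypoxia+Nitrate. Hypoxia 1 thus lay above Hypoxia+Nitrate 2 and 3 for mt-Rnr1, and above Hypoxia+Nitrate 3 for mt-Rnr2. Neither passed in edgeR, with log2 fold changes of 3.42 (SE 1.47, adjusted p = 0.106) and 2.20 (SE 1.36, adjusted p = 0.236). Of the 2, 1 was at an unadjusted p under 0.05, beside 14442 of all 35431 genes in either direction. DESeq2 called 1 of them higher and limma-voom 0, beside 4651 and 3870 of all 35431 genes.

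Per kilobase of sequence not shared with another gene, the rRNA genes had 1.59, 1.05, 1.16 and 1.5 times the counts of the mRNA genes in the Hypoxia libraries, and 0.0491, 0.433, 0.130 and 0.0513 times in the Hypoxia+Nitrate libraries. The ratio was above 1 in every Hypoxia library and below 0.5 in every Hypoxia+Nitrate library. For the pair of mt-Co1 and mt-Rnr2, counts per kilobase of mt-Co1 were 0.796 to 1.48 times those of mt-Rnr2 in Hypoxia and 71.8, 4.16, 15.9 and 87.4 times in Hypoxia+Nitrate. As percent of mitochondrial mRNA counts, mt-Rnr2 was at 23.6%, 18.2%, 16.8% and 26.5% in Hypoxia and at 0.580%, 7.53%, 1.65% and 0.488% in Hypoxia+Nitrate. When each library was scaled to its mitochondrial mRNA total instead, log2 fold changes were −2.88 for mt-Rnr1 (SE 1.57, edgeR adjusted p = 0.0973) and −3.05 for mt-Rnr2 (SE 1.48, edgeR adjusted p = 0.0696), and neither passed. In this scaling 41.2% of all 35431 genes passed as lower in edgeR and 0% as higher. DESeq2 and limma-voom each called both rRNAs lower, but they also called 29417 and 33322 of the 35431 genes lower. How the libraries were depleted of rRNA is not given in the sources used here, and its part in these shares was not tested. The nuclear ribosomal DNA locus was at 75.7%, 73.7%, 7.06% and 44.97% of counts in the Hypoxia libraries, while the mitochondrial rRNA share of these libraries lay between 18.6% and 25.4%.

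Within the mRNA counts, the composition differed less than the total. Scaled to the mitochondrial mRNA total, none of the 13 mRNA genes passed in edgeR: 0 higher and 0 lower, also 0 at an unadjusted p under 0.05 and 0 with DESeq2 or limma-voom, with log2 fold changes from −0.96 for mt-Nd6 to 0.60 for mt-Co1 and standard errors of 1.27 to 1.62. With errors of this size, changes of several-fold in a single mRNA were not detectable in this fit. The errors belong to a fit over all genes tested and are not the spread of the shares themselves. mt-Cytb had an SE of 1.36, while its share stayed between 11.6% and 14.4% of the mitochondrial mRNA total. Of all 35431 genes, 21957 had an unadjusted p under 0.05 by edgeR in this scaling. Shares of this total did not overlap between groups for 2 of the 13, both higher in Hypoxia+Nitrate, and for 11 they overlapped; over all 35431 genes 0.0113% did not overlap in the higher direction and 76.1% in the lower.

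Those 2 were the ATP synthase genes. mt-Atp8 took 1.30%, 1.46%, 1.53% and 1.48% of mitochondrial mRNA counts in Hypoxia and 2.57%, 1.69%, 1.63% and 2.83% in Hypoxia+Nitrate. mt-Atp6, the proton channel subunit (ENSMUSG00000064357, chrM:7927-8607), took 4.59%, 5.83%, 4.15% and 4.55% and then 6.44%, 6.47%, 6.35% and 7.21%. The gap between the groups was narrow, from 1.53% to 1.63% for mt-Atp8 and from 5.83% to 6.35% for mt-Atp6. Their log2 fold changes relative to the total were 0.60 (SE 1.56) and 0.47 (SE 1.45) and did not pass (edgeR adjusted p = 0.706 and 0.749).

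Summed by respiratory complex, the 7 complex I genes took 54.3%, 43.9%, 53.7% and 43.6% of mitochondrial mRNA counts in Hypoxia and 26.5%, 37.0%, 42.7% and 23.8% in Hypoxia+Nitrate, a lower share in every Hypoxia+Nitrate library. The 3 complex IV genes took 27.9%, 36.6%, 26.7% and 36.0% and then 52.7%, 41.0%, 36.1% and 54.5%, with Hypoxia 2 above Hypoxia+Nitrate 3. mt-Cytb, the subunit of complex III, stayed between 11.6% and 14.4% in all 8 libraries. Within complex I, mt-Nd5, a proton-pumping subunit, ranged from 10.7% to 17.96% in Hypoxia and was at 6.14%, 9.004%, 11.5% and 3.82% in Hypoxia+Nitrate, and mt-Nd1 stayed between 8.76% and 11.2% in all 8. The difference for the complexes was not tested, since these are sums over members.

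Per kilobase, mt-Co1 was the highest mRNA in 6 of the 8 libraries, with 12.4% to 24.8% of the summed per-kilobase counts of the 13 genes. In Hypoxia 1 and 2 the highest was mt-Nd6, at 14.99% and 20.6%, against 5.77% and 5.66% in Hypoxia 3 and 4. mt-Nd6 thus varied more within Hypoxia than between the group means of its share of mRNA counts, 6.36% ± 4.24 and 3.28% ± 2.18 (SD, n = 4 each). mt-Nd3 was the lowest per kilobase in all 8 libraries, at 0.866% to 1.72%. The highest gene exceeded the lowest by a factor of 10.1 to 20.4 in Hypoxia and 9.16 to 25.8 in Hypoxia+Nitrate.

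**Figure D3:**
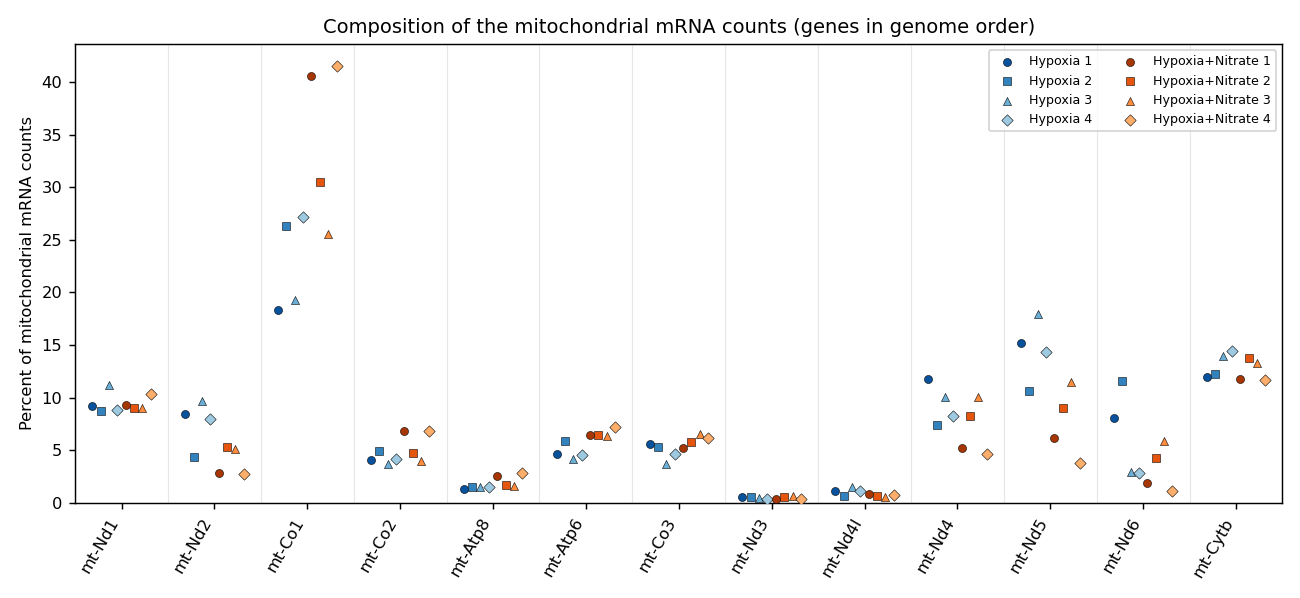
Percent of mitochondrial mRNA counts taken by each of the 13 mRNA genes in genome order, 1 point per library. mt-Atp8 and mt-Atp6 are the genes whose groups do not overlap; mt-Nd6 spreads from 1.10% to 11.6%, and mt-Cytb stays between 11.6% and 14.4%.

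Nuclear copies limit how far 7 of the mRNA genes can be resolved. Old insertions of mitochondrial DNA lie in the nuclear genome, and 9 annotated pseudogenes shared at least 25% of the 50-base stretches of a mitochondrial gene: 7 adjoin each other on chromosome 1 (24611535 to 24616197) and 2 lie on chromosome 2. Gm28661, Gm10925, Gm28437, Gm10222 and Gm28439 had 0 differences from the aligned part of mt-Co2, mt-Atp6, mt-Co3, mt-Nd4l and mt-Nd4, and Gm28438 had 1 difference from mt-Nd3. In the deposited counts the copy of mt-Co2 held 0.992 to 1.00 times the counts of mt-Co2 in Hypoxia and 0.792 to 0.994 times in Hypoxia+Nitrate. The copy of mt-Atp6 held 1.05 to 1.30 times and 0.931 to 1.11 times the counts of mt-Atp6.

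For 3 genes the ratio was higher in every Hypoxia library than in any Hypoxia+Nitrate library. The copy of mt-Co3 held 1.02 to 1.185 times the counts of mt-Co3 in Hypoxia and 0.903 to 1.01 times in Hypoxia+Nitrate, and the copy of mt-Nd4l 1.06 to 1.415 times and 0.856 to 1.03 times those of mt-Nd4l. The widest gap was at mt-Nd3, whose copy held 2.46, 1.33, 4.07 and 4.53 times its counts in Hypoxia and 1.08, 1.15, 1.05 and 1.04 times in Hypoxia+Nitrate. How reads with several matches were assigned is likewise not given. With the copies added to their genes, mitochondrial counts took 1.12%, 1.35%, 1.63% and 0.680% of counts in Hypoxia and 79.3%, 9.89%, 8.92% and 62.6% in Hypoxia+Nitrate, and edgeR again called 3 mRNA and 7 tRNA genes higher. The complex I share stayed lower in every Hypoxia+Nitrate library (38.2% to 49.9% against 20.96% to 36.9%). The log2 fold change of mt-Nd3 relative to the mRNA total turned from 0.11 (SE 1.62) to −0.80.

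**Figure D4:**
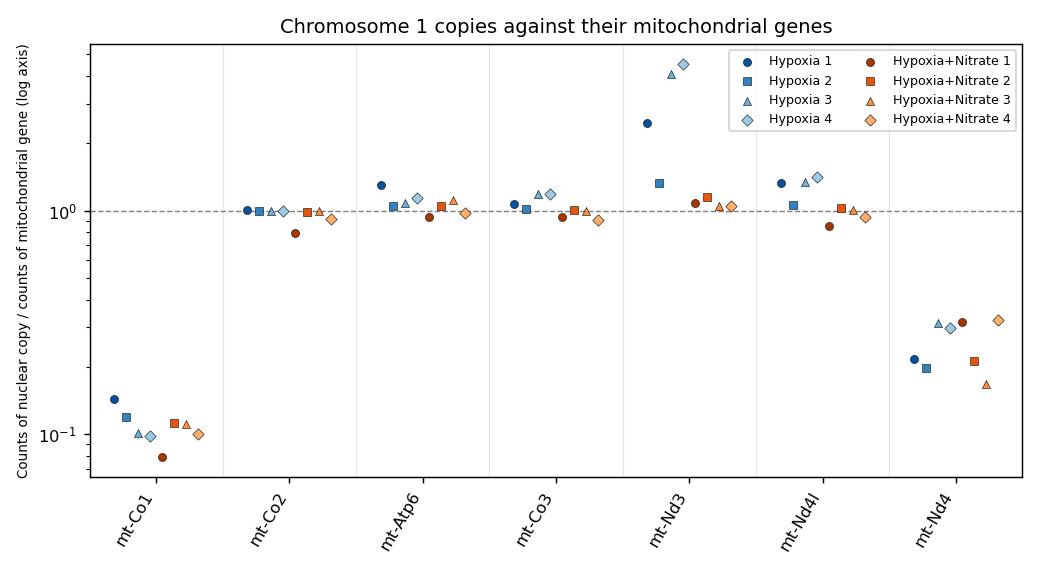
Counts of each of the 7 chromosome 1 copies divided by the counts of its mitochondrial gene (log axis), 1 point per library; the dashed line marks equal counts. The copies of mt-Co2, mt-Atp6, mt-Co3 and mt-Nd4l lie near the line in all 8 libraries, and the copy of mt-Nd3 reaches 4.53 in Hypoxia.

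The tRNA genes, which carry amino acids to the mitochondrial ribosome, did not move as a block. Of the 22, 21 could be tested; mt-Ts2 had 1 or 2 counts in each library. By edgeR 7 of 21 were higher in Hypoxia+Nitrate (background 11.7%) and 0 lower, with log2 fold changes from −2.18 for mt-Tf to 5.26 for mt-Tl1 and a median of 2.41. At an unadjusted p under 0.05 10 were higher and 0 lower, beside 14442 of all 35431 genes in either direction. DESeq2 called 7 higher and 1 lower, beside 4651 and 10038 of all 35431 genes. The 7 were mt-Tl1 (5.26, SE 1.40, adjusted p = 0.0225), mt-Tp (5.10, SE 1.51, adjusted p = 0.0330), mt-Te (3.80, SE 1.21, adjusted p = 0.0430) and the 4 genes of the minus-strand cluster between mt-Nd2 and mt-Co1. Groups did not overlap in CPM for the 4 cluster genes and overlapped for the other 17. By strand, a split made after the values were seen, 6 of the 8 minus-strand tRNA genes were higher and 1 of the 13 tested on the plus strand, mt-Tl1; median log2 fold changes were 3.87 and 1.59. The difference between the strands was not tested, and of the 20 alternative settings mt-Te passed in 7 and mt-Tn in 9.

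The cluster, mt-Ta, mt-Tn, mt-Tc and mt-Ty, takes up chrM:5018-5326 and contains the origin of light-strand replication between mt-Tn and mt-Tc. mt-Tn held 74.2, 153, 9.80 and 5.30 CPM in the Hypoxia libraries and 2972, 219, 345 and 749 CPM in the Hypoxia+Nitrate libraries (log2 fold change 4.15, SE 1.32, edgeR adjusted p = 0.0422). mt-Tc held 68.3, 121, 12.3 and 5.84 CPM and then 2108, 197, 321 and 551 CPM (log2 fold change 3.94, SE 1.19, edgeR adjusted p = 0.0347). mt-Ta and mt-Ty followed the same order of libraries in Hypoxia, with log2 fold changes of 4.14 (SE 1.21, adjusted p = 0.0308) and 3.72 (SE 1.00, adjusted p = 0.0234). All 4 were highest in Hypoxia+Nitrate 1 and lowest in Hypoxia 4.

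Together the cluster held 3034, 5220, 734 and 319 counts in Hypoxia and 101050, 9971, 16502 and 36741 in Hypoxia+Nitrate. The other 18 tRNA genes held 4023, 1770, 2464 and 1162 counts in Hypoxia and 59264, 2924, 1525 and 26684 in Hypoxia+Nitrate. The cluster therefore made up 43.0%, 74.7%, 22.95% and 21.5% of tRNA counts in Hypoxia and 63.0%, 77.3%, 91.5% and 57.9% in Hypoxia+Nitrate; counting error was at most 2.09 percentage points on either side (95% Wilson). Hypoxia 2 fell within the Hypoxia+Nitrate range. Minus-strand mt-Nd6 took 8.06%, 11.6%, 2.95% and 2.85% of mitochondrial mRNA counts in Hypoxia and 1.90%, 4.26%, 5.86% and 1.10% in Hypoxia+Nitrate. Within each group the cluster share and the mt-Nd6 share put the libraries in the same order, from highest to lowest 2, 1, 3 and 4 in Hypoxia and 3, 2, 1 and 4 in Hypoxia+Nitrate; this is a description and was not tested.

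At the other end stood tRNA genes of both strands whose counts were low in Hypoxia+Nitrate although the mRNA counts there were many times larger. mt-Tf, the first gene after the heavy-strand promoter region, had 136, 25, 72 and 14 raw counts in the Hypoxia libraries and 19, 21, 1 and 17 in the Hypoxia+Nitrate libraries. In CPM these were 9.08, 1.82, 3.79 and 0.843 against 1.35, 1.19, 0.0544 and 0.8293, with overlapping groups, and the log2 fold change of −2.18 (SE 1.03) did not pass (edgeR adjusted p = 0.137). mt-Tv, which lies between the rRNA genes, had 201, 48, 97 and 39 raw counts in Hypoxia and 45, 54, 5 and 7 in Hypoxia+Nitrate (log2 fold change −1.83, SE 0.932, edgeR adjusted p = 0.162). On the minus strand, mt-Tq (glutamine), whose gene overlaps the end of mt-Ti, had 292, 109, 188 and 92 raw counts in Hypoxia and 76, 170, 16 and 30 in Hypoxia+Nitrate (log2 fold change −1.30, SE 0.738, edgeR adjusted p = 0.201). mt-Tq and mt-Ts1 (serine, log2 fold change −0.78, SE 0.930, edgeR adjusted p = 0.536) are the minus-strand tRNA genes that were not among the 6 called higher. mt-Ti, which follows mt-Nd1, had 273, 114, 255 and 145 raw counts in Hypoxia and 155, 165, 24 and 128 in Hypoxia+Nitrate (log2 fold change −0.80, SE 0.594, edgeR adjusted p = 0.317). On the plus strand mt-Tm and mt-Td were also below 0, at −0.67 and −0.05 (log2 fold change), and did not pass. The neighbours mt-Rnr1 and mt-Nd1 had 215225 and 3799131 counts in Hypoxia+Nitrate 1.

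Scaled to the mitochondrial mRNA total, 9 of 21 tRNA genes passed as lower in edgeR and 0 as higher, beside a background of 41.2% lower among all genes. They were mt-Tf, mt-Tv, mt-Tk, mt-Ti, mt-Tm, mt-Tq, mt-Tt, mt-Th and mt-Tl2, with log2 fold changes from −6.58 (mt-Tf, SE 2.48, adjusted p = 0.0332) to −4.48 (mt-Tl2, SE 1.87, adjusted p = 0.0451). Of the 9, 8 lie on the plus strand. This share of members is near the background, and relative to the mitochondrial mRNAs all 35431 genes had a median of −4.57 (log2 fold change). The 4 cluster genes were at −0.51 (mt-Tn) to −1.01 (mt-Ty) in this scaling and did not pass. Without Hypoxia 1, 3 or 4, or without Hypoxia+Nitrate 4, edgeR called 0 tRNA genes lower (9, 9, 11 and 10 at an unadjusted p under 0.05). Without Hypoxia+Nitrate 3 it called 2. Over all genes tested, these fits called 3638 of 34746, 3666 of 38001, 3749 of 38580, 6338 of 37453 and 18799 of 41885 lower. Without Hypoxia 1, 3 or 4, or Hypoxia+Nitrate 4, 17565, 16495, 15960 and 18234 of these genes had an unadjusted p under 0.05 in either direction. DESeq2 called 16 tRNA genes lower and limma-voom 13, beside 29417 and 33322 of all 35431 genes.

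**Figure D5:**
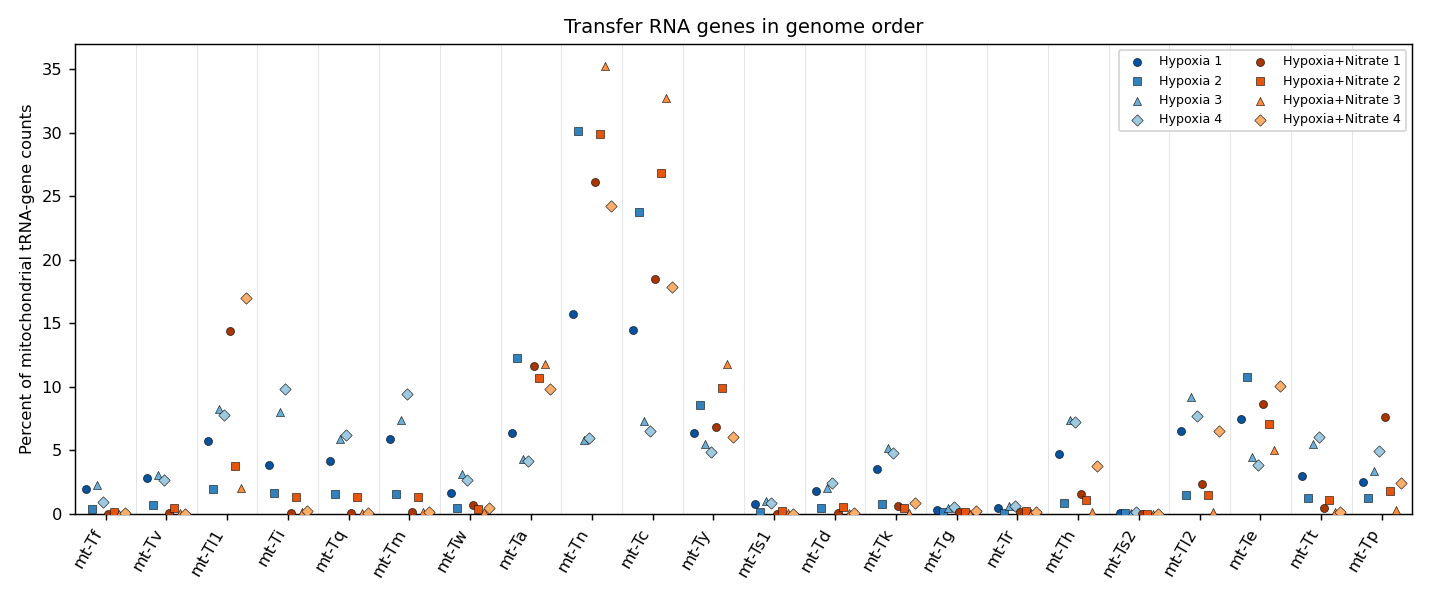
Percent of mitochondrial tRNA counts taken by each of the 22 tRNA genes in genome order, 1 point per library. mt-Ta, mt-Tn, mt-Tc and mt-Ty hold most counts in Hypoxia+Nitrate, while mt-Tf, mt-Tv, mt-Ti, mt-Tq and mt-Tm hold at most 1.32% there.

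Nuclear genes that copy, transcribe, process and translate the mitochondrial genome had smaller fold changes than the mitochondrial mRNAs, whose median was 7.12. Of 99 tested in 6 lists, 15 were higher in Hypoxia+Nitrate and 0 lower by edgeR, or 15.2% against a background of 11.7% for all genes, with a median log2 fold change of 0.44 against −0.58. DESeq2 called 6 of the 99 lower, beside 10038 of all 35431 genes. The lists were chosen with earlier results of these data known, and no test was made of a list as a whole. Without Hypoxia 1 the number higher was 2, without Hypoxia 3 or 4 it was 6 each, and without Hypoxia+Nitrate 2 or 3 it was 25 each; with library size as the only scaling it was 0 in edgeR. Over all genes tested, these fits called 676 of 34746, 1580 of 38001, 1631 of 38580, 5974 of 41753, 5490 of 41885 and 243 of 35431 higher.

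Of 11 genes of transcription, 1 was higher: Mrpl12, a mitochondrial ribosomal protein that also binds the polymerase, with 4.41, 9.09, 1.95 and 6.57 CPM in Hypoxia and 65.7, 22.5, 21.4 and 132 CPM in Hypoxia+Nitrate (log2 fold change 3.46, SE 0.740, edgeR adjusted p = 0.0106). The core factors did not pass. Tfam, which packages and activates mitochondrial DNA, held 9.28, 4.44, 6.64 and 5.42 CPM and then 22.8, 9.04, 9.47 and 23.0 CPM (1.32, SE 0.472, edgeR adjusted p = 0.0631). Polrmt, the polymerase, was at 7.25 ± 1.82 and 10.4 ± 3.68 CPM (SD, n = 4 each; 0.52, SE 0.431, edgeR adjusted p = 0.373). Mterf3, a regulator of transcription and ribosome assembly, was at 0.99 (SE 0.394, edgeR adjusted p = 0.0857).

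Of 15 replication and nucleoid genes 2 were higher, Atad3a, a membrane protein tied to nucleoids (1.99, SE 0.532, edgeR adjusted p = 0.0225), and Slc25a36, a pyrimidine nucleotide carrier (1.32, SE 0.436, edgeR adjusted p = 0.0480). Polg, the DNA polymerase, held 30.4, 26.3, 40.95 and 43.2 CPM in Hypoxia and 46.7, 79.8, 129 and 41.2 CPM in Hypoxia+Nitrate and did not pass (1.08, SE 0.496, edgeR adjusted p = 0.127). Its highest value was in Hypoxia+Nitrate 3, a library with a low mitochondrial share, and Hypoxia+Nitrate 4 lay below Hypoxia 4.

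RNA processing and stability had 6 of 20 tested genes higher. Slirp, which binds and stabilises mitochondrial mRNAs together with Lrpprc, held 1.14, 0.8001, 0.474 and 0.663 CPM in Hypoxia and 10.4, 7.45, 8.44 and 19.4 CPM in Hypoxia+Nitrate (3.89, SE 0.560, edgeR adjusted p = 0.00917). Its partner Lrpprc did not pass, at 9.13 ± 1.58 and 14.3 ± 6.04 CPM (SD, n = 4 each; 0.65, SE 0.413, edgeR adjusted p = 0.250). Hsd17b10, a subunit of the mitochondrial RNase P that frees tRNA 5′ ends, was higher (2.91, SE 0.581, edgeR adjusted p = 0.00921), as was Tbrg4, a FASTK-family RNA-binding protein (1.95, SE 0.478, edgeR adjusted p = 0.0167).

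Among 17 genes of RNA modification 1 was higher, Nsun2, a cytosine methyltransferase for tRNAs that also acts outside mitochondria (2.20, SE 0.682, edgeR adjusted p = 0.0387). Of 23 genes for charging mitochondrial tRNAs 2 were higher, Gars (3.45, SE 0.722, edgeR adjusted p = 0.00993) and Kars (2.69, SE 0.587, edgeR adjusted p = 0.0112). Both genes also encode the cytosolic glycyl- and lysyl-tRNA synthetases, and Iars2, which serves mitochondria alone, did not pass (1.90, SE 0.677, edgeR adjusted p = 0.0625). Of 13 translation and insertion factors 3 were higher: the elongation factor Tufm (2.42, SE 0.599), its exchange factor Tsfm (2.02, SE 0.563) and the insertase Oxa1l (2.04, SE 0.520), with edgeR adjusted p of 0.0171, 0.0264 and 0.0191.

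Of 11 regulators of mitochondrial biogenesis 2 were higher and 1 lower, beside 11.7% higher and 12.7% lower among all genes tested. Esrra, an orphan nuclear receptor for respiratory genes, held 9.61, 20.2, 4.43 and 12.7 CPM in Hypoxia and 206, 42.0, 54.4 and 334 CPM in Hypoxia+Nitrate (3.76, SE 0.818, edgeR adjusted p = 0.0111). Gabpa, an ETS transcription factor, was also higher (1.53, SE 0.499, edgeR adjusted p = 0.0456), and Sirt3, the mitochondrial deacetylase, was lower (−1.47, SE 0.421, edgeR adjusted p = 0.0295). The coactivator Ppargc1a did not pass (1.21, SE 0.582, edgeR adjusted p = 0.140). Of 10 mitophagy genes 6 were higher and 0 lower, beside the same background of 11.7% and 12.7%, among them Pink1, the kinase that marks damaged mitochondria (3.57, SE 0.770, edgeR adjusted p = 0.0108), Bnip3, a hypoxia-inducible mitophagy receptor (3.05, SE 0.544, edgeR adjusted p = 0.00917), and Sqstm1, an autophagy adaptor (3.39, SE 0.712, edgeR adjusted p = 0.00997).

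Over 20 alternative settings, Slirp, Bnip3, Pink1 and Sqstm1 each passed in 19, Esrra in 17 and Sirt3 in 11, whereas Nsun2 and Slc25a36 passed in 6 and Gabpa in 5.

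Hypoxia levels of these nuclear genes were close to that of the receptor genes. Over the 28 named here or tested beside them by the same rule, Hypoxia counts were 0.785 to 10.4 times (median 2.15) what the receptor genes' counts per kilobase predict for a gene of that length, with Tsfm, Lrpprc, Mterf3 and Atad3a at 0.785, 1.01, 1.15 and 1.23. Their fold changes therefore start near that level, and expression of genes at about 1 was not detectable above it in Hypoxia. Counts per kilobase of the mitochondrial mRNA genes, in contrast, had a median of 608, 1193, 201 and 161 times the receptor density in the Hypoxia libraries. Cells hold many copies of mitochondrial DNA, so the receptor density is no background level for these genes, and the part of mitochondrial DNA in their counts was not tested.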

How the data were processed

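Bulk RNA sequencing of mouse small intestine was analysed in 4 Hypoxia and 4 Hypoxia+Nitrate samples, grouped by sample title. Per the labels' protocols, RNA was isolated with TRIzol (the text speaks of islets) before preparation of libraries with the KAPA Stranded RNA-Seq kit. Per the submitters' processing notes, HISAT, featureCounts 1.5.0-p3, DESeq 1.8.3 and build GRCm38 were used; the treatment of strand and of multi-mapping reads is not given in the sources used here. Deposited values are whole-number counts of reads per gene, and the 8 per-sample tables were identical to the joint table. Gene positions, classes and sequences came from GENCODE M21 (55154 of 55421 IDs matched).

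The comparison used edgeR 4.0.16 in R 4.3.3 (filterByExpr with minimum count 10 and minimum total 15, TMM, quasi-likelihood test, Benjamini-Hochberg at 0.05), fitted on all 35431 genes that passed. In a further fit the library size was the summed counts of the 13 mitochondrial mRNA genes. CPM values use TMM-scaled library sizes, so that a small factor gives large values. The marker sums are the exception and use the total counts of each library. Standard errors were derived from the fold change and F statistic. Wilson intervals cover counting error only. Named genes were all mitochondrial mRNA and rRNA genes, the tested tRNA genes, the 3 genes of lowest p in each nuclear list, and Tfam, Polrmt, Lrpprc, Polg and Ppargc1a. The members and lists were chosen with earlier results of these data known. Alternatives were other scalings and filters, DESeq2 1.42.0, limma-voom (limma 3.58.1), a replicate block and left-out samples; adding the nuclear copies was chosen after seeing the data.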

Additional observations from a re-analysis of the deposited data

Results flagged for a closer look

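In 5 of 84 groups of 4 libraries, 1 library stood apart from the other 3 by more than Dixon's 95% critical gap; chance alone gives about 1 in 20 such groups. mt-Nd1 took 11.2% of mitochondrial mRNA counts in Hypoxia 3, against 8.76% to 9.17% in the other Hypoxia libraries. mt-Atp6 took 7.21% in Hypoxia+Nitrate 4, against 6.35% to 6.47%. mt-Rnr2 was at 7.53% of mitochondrial mRNA counts in Hypoxia+Nitrate 2, against 0.488% to 1.65%. In Hypoxia+Nitrate 1, mt-Ty was at 775 CPM, against 72.8 to 187 in the other 3 libraries, and mt-Tp at 863 CPM, against 2.78 to 75.5.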

How the results depend on the processing

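The 10 members called higher became 8 with RLE, upper-quartile or nuclear-gene TMM scaling, 15 with library size only or without a filter, 21 with DESeq2, 19 with limma-voom, 3 without Hypoxia+Nitrate 1 and 4, and 0 without Hypoxia 1 and 2; leaving out 1 library gave 0 to 24. Of all 35431 genes, 3237, 2844 and 3317 were higher with RLE, upper-quartile and nuclear-gene TMM scaling, and 243 with library size only. DESeq2 called 4651 of them higher and limma-voom 3870. Without a filter 5054 of 54176 genes were higher, and without Hypoxia+Nitrate 1 and 4 4243 of 42069. Over all genes tested, 624 of 41205 were higher without Hypoxia 1 and 2. With a library left out, higher calls ranged from 676 of 34746 to 5974 of 41753 genes. Members called lower were 1 with DESeq2 and 0 to 1 with a library left out. Every one of the 20 fits that gave mt-Co1 a fold change had it above 0 (log2 2.77 to 9.69). The 13 mRNAs had 0 calls in either direction relative to their total in each of 18 alternatives. The scale of these 18 fits came mostly or wholly from the same 13 genes, so 0 calls do not show an unchanged composition. Deviations of same-numbered libraries from their group means had correlations of 0.0506, −0.182, 0.184 and −0.0503. For Hypoxia 1 and 3, but not 2 and 4, the same-numbered library was the most correlated one of Hypoxia+Nitrate. Whether same-numbered libraries share an animal or a batch cannot be told from these values. With the replicate block 2 members were higher, with 7 of the nuclear machinery genes, beside 2176 of all 35431 genes. Machinery genes higher were 0 with library size only, 1 without Hypoxia 1 and 2, and 2 to 25 with a library left out. Machinery genes lower were 4 with RLE or upper-quartile scaling, 2 with nuclear-gene TMM, 6 with DESeq2, 3 with limma-voom, 9 without Hypoxia+Nitrate 1 and 4, and 0 to 2 with a library left out. Of all 35431 genes, 6012 were lower with RLE, 5425 with upper-quartile scaling, 4215 with nuclear-gene TMM, 10038 with DESeq2 and 11948 with limma-voom. Without Hypoxia+Nitrate 1 and 4, 7394 of 42069 genes were lower. With library size only the log2 fold changes of Polrmt, Lrpprc and Ppargc1a were −0.27, −0.37 and −0.48, and that of Ppargc1a was −0.18 without Hypoxia+Nitrate 1 and 4. Relative to the mRNA total, genes near 0 changed sign: mt-Nd1 was at 0.34 when scaled to all mitochondrial counts, 0.0625 with TMM over the 13 mRNAs, 0.00638 with limma-voom and −0.0641 to 0.0749 with a library left out; mt-Cytb at 0.30, 0.0033 and (without Hypoxia+Nitrate 1 and 4) 0.0428; mt-Nd3 at −0.0183 with limma-voom, −0.80 with nuclear copies added and −0.0536 to 0.226 with a library left out; and mt-Nd6 at 0.18 without Hypoxia 1 and 2. The causes were not tested. Depth limits the tRNA genes most: mt-Tf had 1 to 136 counts in a library and mt-Ts2 1 or 2, against at least 116 for every mRNA gene.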
